A study of Mus musculus with 30 samples.

Results

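The genes described here are 8 genes of cholesterol synthesis and its control by the sterol regulatory element binding proteins (SREBPs): Srebf1, Srebf2, Insig1, Hmgcs1, Idi1, Fdft1, Sqle and Cyp51. They were chosen by name, and they are 8 of the 21951 protein-coding genes in the mouse annotation used. The study mapped H3K27ac, a histone acetylation found at active promoters and enhancers, in CK1750 and Tnm2, both mouse lung adenocarcinoma cell lines. CK1750 was used by the study as a line that resembles tumor-propagating cells (TPCs). The 4 groups were CK1750 with the solvent DMSO (3 samples), CK1750 with 1 µM UNC0638 (2 samples), Tnm2 with DMSO (2 samples) and Tnm2 with 1 µM UNC0638 (2 samples). UNC0638 inhibits G9a and Glp, the enzymes that place H3K9me2, and treatment with it is called G9ai below. In CK1750, 2 of the 3 DMSO samples are sequencing runs of 1 replicate, and both UNC0638 samples carry the same replicate number. All groups were grown in the same serum-containing medium, and each line is a single culture model whose driver mutations the labels do not give. The study's methods state that cultured cells were kept in the drug for several days, with fresh drug given midway. The comparisons ask where H3K27ac lay at these genes and whether it differed with G9ai or between the lines.

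Srebf1 and Srebf2 encode transcription factors that are made as membrane proteins of the endoplasmic reticulum. When sterols are scarce, the escort protein Scap carries them to the Golgi, where the proteases encoded by Mbtps1 and Mbtps2 release the active part, which binds sterol regulatory elements in promoters. When sterols are plentiful, the Insig proteins hold Scap back. The SREBP2 protein acts mainly on cholesterol synthesis and uptake. SREBP1 is made from separate starts as isoforms a and c, and isoform c is best known for activating fatty acid synthesis. Hmgcs1 and Idi1 act in the mevalonate and isoprenoid steps. Fdft1 makes squalene, Sqle oxidizes it, and Cyp51 removes a methyl group from lanosterol on the way to cholesterol.

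The promoters on which the results turn are printed first, as the 250 bases before the RefSeq start of each transcript on GRCm38 (mm10). Srebf1 is shown at the starts of isoform c (chr11:60210472-60210721, minus strand) and isoform a (chr11:60220628-60220877, minus strand), since their peaks changed differently. Srebf2 (chr15:82147019-82147268, plus strand) carried the highest-scoring promoter peak of the 8 genes, Insig1 (chr5:28071162-28071411, plus strand) held an E-box, Hmgcs1 (chr13:119690101-119690350, plus strand) held the full sterol regulatory element, and Cyp51 (chr5:4104698-4104947, minus strand) had the widest range of ranks. Capitals mark TCACNCCAC (sterol regulatory element), CACGTG (E-box), CCAAT (bound by NF-Y) and GGGCGG (bound by Sp1) on either strand, so that matches on the opposite strand read as their reverse complements. In Srebf2 they also mark a match to the shorter TCACNCCA, which was searched after the sequences had been seen.
Srebf1 isoform c: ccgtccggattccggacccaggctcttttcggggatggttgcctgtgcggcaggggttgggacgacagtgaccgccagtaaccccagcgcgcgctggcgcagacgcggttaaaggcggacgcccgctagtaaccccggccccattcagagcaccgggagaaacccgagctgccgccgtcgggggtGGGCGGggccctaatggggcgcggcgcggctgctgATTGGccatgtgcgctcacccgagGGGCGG
Srebf1 isoform a: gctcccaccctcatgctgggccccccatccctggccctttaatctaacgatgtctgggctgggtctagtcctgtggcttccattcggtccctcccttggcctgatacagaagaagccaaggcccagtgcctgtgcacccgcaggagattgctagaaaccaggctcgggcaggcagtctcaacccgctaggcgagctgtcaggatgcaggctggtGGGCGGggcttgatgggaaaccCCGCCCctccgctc
Srebf2: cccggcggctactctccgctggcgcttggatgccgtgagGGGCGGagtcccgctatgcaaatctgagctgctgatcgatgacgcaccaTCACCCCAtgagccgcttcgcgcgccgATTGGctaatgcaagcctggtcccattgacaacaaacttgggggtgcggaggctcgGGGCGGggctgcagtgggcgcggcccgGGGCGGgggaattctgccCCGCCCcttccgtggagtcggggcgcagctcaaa
Insig1: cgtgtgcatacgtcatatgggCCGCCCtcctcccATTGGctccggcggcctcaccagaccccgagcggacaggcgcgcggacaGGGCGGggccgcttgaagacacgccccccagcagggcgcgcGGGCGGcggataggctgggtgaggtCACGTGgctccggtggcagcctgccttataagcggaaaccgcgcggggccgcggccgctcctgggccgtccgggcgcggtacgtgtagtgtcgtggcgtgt
Hmgcs1: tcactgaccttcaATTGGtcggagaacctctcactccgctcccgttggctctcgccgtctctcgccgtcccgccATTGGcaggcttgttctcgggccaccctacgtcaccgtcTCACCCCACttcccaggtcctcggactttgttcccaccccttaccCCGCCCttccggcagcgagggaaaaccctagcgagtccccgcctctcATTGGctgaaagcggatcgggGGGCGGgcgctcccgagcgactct
Cyp51: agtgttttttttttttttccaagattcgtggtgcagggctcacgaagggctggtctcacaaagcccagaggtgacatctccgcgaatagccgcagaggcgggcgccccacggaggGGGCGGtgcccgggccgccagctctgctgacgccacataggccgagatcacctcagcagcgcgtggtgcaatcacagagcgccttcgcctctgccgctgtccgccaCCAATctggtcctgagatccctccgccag

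RefSeq promoters of 300 bases (250 before to 50 after a start) were found for 6 of the 8 genes, with 3 starts for Srebf1, and for neither Fdft1 nor Sqle. TCACNCCAC was held by Hmgcs1 alone among the 6 genes, 137 bases before its start, and by 1.24% of all 32851 promoters in the table. The shorter TCACNCCA, which any TCACNCCAC also contains, occurred in Hmgcs1 and, 162 bases before the start, in Srebf2, and in 4.36% of all promoters. CACGTG occurred in Insig1, 101 bases before its start, and in 7.15% of all promoters. All 6 genes held CCAAT at a start, as did 37.4% of all promoters, and all 6 held GGGCGG, as did 35.7%. The start of Srebf1 isoform a held GGGCGG and no CCAAT, and the start of isoform c held both. GC content was 70.7% at the isoform c start, 62.7% at the isoform a start and 71.7% at Insig1, against a median of 52.7% over all promoters. It was 68.7% at Srebf2, 65.7% at Hmgcs1 and 64.7% at Cyp51. The isoform d start of Srebf1 (54.3%) and Idi1 (52.3%) lay near the median. A match is a run of letters and does not show that a factor binds there. Only these letters were searched, so the lack of a match does not show that an element is absent.

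Each group is represented by 1 list of peaks called by the authors on pooled samples. The values below therefore carry no replicate error, no difference between lists could be tested, and sequencing depth is unknown. The lists held 18794 to 30641 peaks, the fewest in Tnm2 with G9ai. The score of a peak is -10 log10 of its P value, with 50 as the lowest score listed. It ranks peaks within a list and grows with depth, so scores of different lists are given side by side and not compared as signal. Promoter peaks were present in all 4 lists at the epithelial genes Cdh1, Krt8 and Krt18 and in none at Epcam. Of the 5 lung lineage genes, Nkx2-1 and Sftpc had one in all 4 lists, Scgb1a1 only in the DMSO lists (53.0 in CK1750 and 57.9 in Tnm2), Sftpb only in Tnm2 with G9ai (77.4) and Ager in none. None of the 3 leukocyte genes Ptprc, Cd68 and Cd3e had one in any list. Of the endothelial genes, Pecam1 had one in both Tnm2 lists and Cdh5 and Kdr had none. By score among the genes with a promoter peak in both Tnm2 lists, Pecam1 stood at percentile 5.03 with DMSO and 55.3 with G9ai. Only 0.112% of those genes rose as far. Of the fibroblast genes, Col1a1 had one in every list but that of Tnm2 with G9ai, and Pdgfra and Dcn had none. The part of other cell types in the differences between lists was not tested.

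A promoter peak was a peak that overlapped 2.5 kb on either side of any annotated transcript start of the gene. With DMSO, 7 of the 8 genes had a promoter peak in CK1750 and 8 of 8 in Tnm2, and with G9ai the counts were 8 in CK1750 and 6 in Tnm2. Over all protein-coding genes the shares were 50% in CK1750 and 49.4% in Tnm2 with DMSO, and 49.1% and 41.3% with G9ai. Srebf1, Srebf2, Insig1, Hmgcs1, Idi1 and Cyp51 had a promoter peak in all 4 lists, that is 6 of 8 genes (75%), against 39.2% of all protein-coding genes and 28 of 46 other pathway genes (60.9%). The genes whose presence varied were Sqle and Fdft1. A promoter peak was lost with G9ai by 0 of the 7 genes that had one in CK1750 and by 2 of 8 in Tnm2, against 4.85% and 17.7% of all genes with a DMSO promoter peak. A promoter peak was gained by 1 of 1 gene without one in CK1750, against 3.03% of all such genes. In Tnm2 none of the 8 genes lacked a DMSO promoter peak, and 1.18% of the genes that did gained one.

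**Figure D1:**
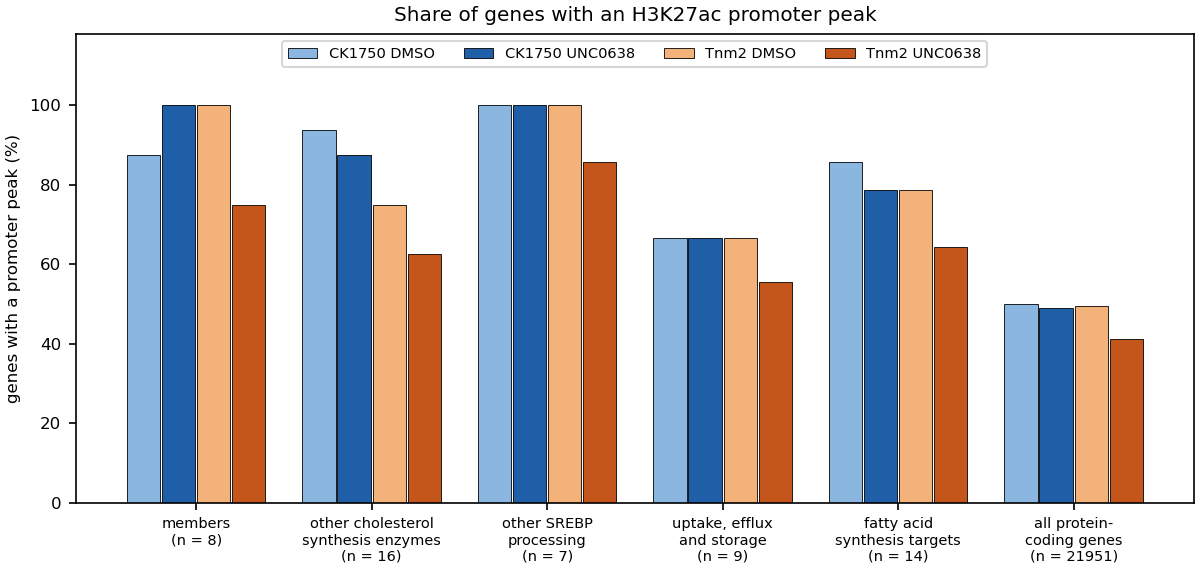
Bars give the percentage of genes with an H3K27ac promoter peak in each of the 4 lists, for the 8 members, for 4 groups of other pathway genes and for all protein-coding genes, with 1 list per bar and no error. The share in Tnm2 with G9ai is the lowest bar of every group, 6 of 8 among the members and 41.3% among all genes.

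To compare levels between lists of different length, each gene was ranked by the score of its best promoter peak among the 8615 protein-coding genes that had a promoter peak in all 4 lists. This gene rank runs from 0 to 100, with 100 the highest, and a change of at least 10 points was called a rise or a fall. It is relative to the other genes and does not show a change that all promoters share. In Tnm2, 97.6% of the ranked genes had a lower score with G9ai than with DMSO, with a median ratio of 0.424, and in CK1750 62.5% did, with a median ratio of 0.895. Among the 6 ranked members, all 6 scored lower with G9ai in Tnm2, with ratios from 0.286 to 0.534. In CK1750, 3 scored lower and 3 higher, with ratios from 0.915 to 1.20. Since scores grow with depth, which is unknown, these ratios do not show whether H3K27ac itself changed.

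**Figure D2:**
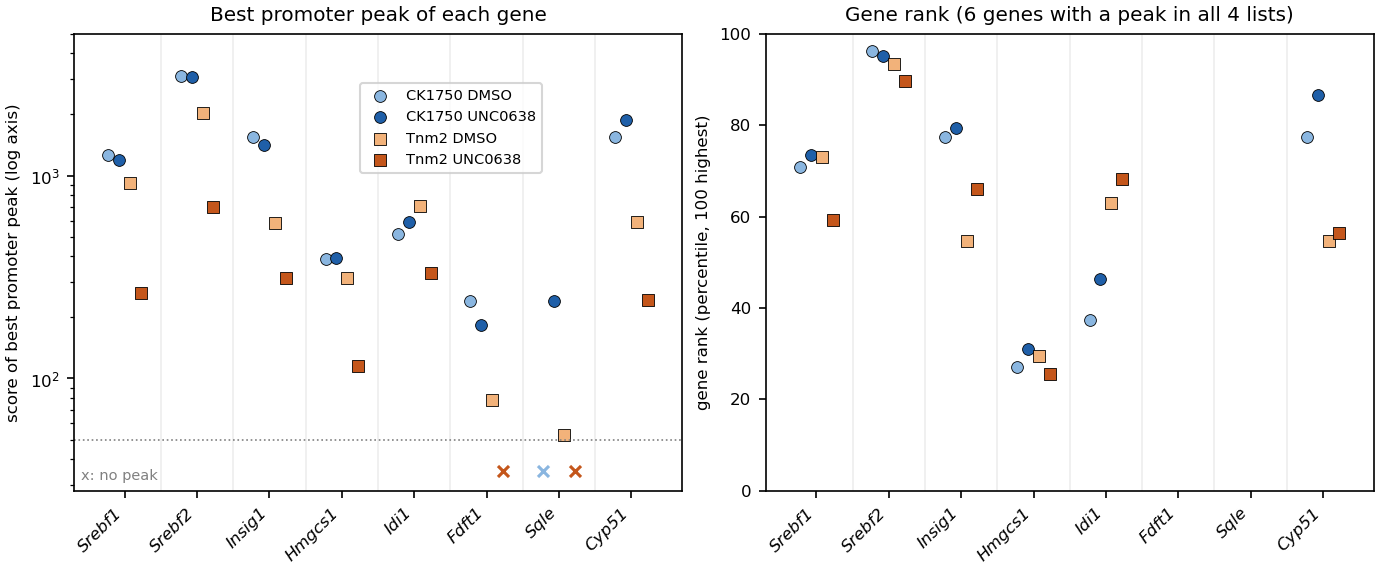
Left, the score of the best promoter peak of each gene on a log axis, with crosses for lists without a promoter peak and a dotted line at the lowest listed score of 50. Right, the gene rank of the 6 genes with a promoter peak in all lists. Each point is 1 pooled list. Srebf2 ranks highest in every list, and Cyp51 and Insig1 rank higher in CK1750 than in Tnm2 while Idi1 ranks lower.

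Srebf2 (chr15:82147181-82205379, plus strand) had the strongest promoter mark of the 8 genes. Its single promoter peak covered the start in every list and scored 3100 and 3063 in CK1750 with DMSO and G9ai, and 2042 and 700.0 in Tnm2. Its gene rank was 96.1, 95.1, 93.3 and 89.7 in the same order. The 4 ranks lay within 6.39 points, the changes with G9ai were -1.04 points in CK1750 and -3.56 in Tnm2, and neither reached the 10 points called a change. In CK1750 with DMSO, 610 peaks scored 3100 or more, most of them exactly 3100, so scores at this end hardly order the peaks.

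Srebf1 (chr11:60199089-60222581, minus strand) had 5 promoter peaks in every list. Its best one scored 1269 and 1188 in CK1750 with DMSO and G9ai, and 920.2 and 262.7 in Tnm2. The gene rank was 70.9, 73.5, 73.1 and 59.2. It changed by 2.58 points in CK1750 and by -13.9 in Tnm2, a fall that 13.1% of ranked genes matched or exceeded. Ranked by the bases covered in the promoter window instead of the score, the change in Tnm2 was -0.73 points. Since the best peak lay at the isoform a start in CK1750, at the isoform c start in Tnm2 with DMSO and at the isoform d start in Tnm2 with G9ai, this value joins different starts.

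The starts of Srebf1 were therefore taken apart, a comparison made after the data had been seen. The peak over the isoform c start scored 470.0 in CK1750 with DMSO and 1076 with G9ai, and 920.2 in Tnm2 with DMSO and 78.8 with G9ai. The peak over the start shared by isoforms a and b, 10.1 kb upstream, scored 1269 and 1188 in CK1750 and 380.8 and 258.4 in Tnm2. Within each list, the isoform c peak scored 0.370 times the isoform a peak in CK1750 with DMSO, 0.906 times with G9ai, 2.42 times in Tnm2 with DMSO and 0.305 times with G9ai. The order of both starts thus differed between the DMSO lists of the lines, and with G9ai the ratio was higher in CK1750 and lower in Tnm2.

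Each transcript start was also ranked among the 24942 starts of protein-coding genes that lay under a peak in all 4 lists. The isoform c start ranked 28.6 in CK1750 with DMSO and 66.1 with G9ai, and 69.2 in Tnm2 with DMSO and 8.67 with G9ai. Its rank rose by 37.5 points in CK1750, where 0.702% of starts rose as far, and changed by -60.5 in Tnm2, where 0.160% of starts fell as far. The start of isoforms a and b changed by 2.99 points in CK1750 and by 22.1 in Tnm2, and the start of isoform d by -4.56 and 8.07. In Tnm2 the peak around isoform c was called as 1 interval with DMSO (chr11:60208378-60211535) and as separate intervals with G9ai (chr11:60208559-60209451 and chr11:60210444-60211232), with the start near the edge of the latter. With peaks within 1 kb of each other joined, each joined peak took the highest score of its parts. The isoform c start then changed by 37.9 points in CK1750 and by -56.5 in Tnm2. Joining in this way cannot show what score an undivided peak would have had, so the part of the split in the change was not tested. The 250 bases printed for isoform c lay wholly under a peak in all 4 lists, and 135 of those printed for isoform a did in Tnm2 with G9ai.

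**Figure D3:**
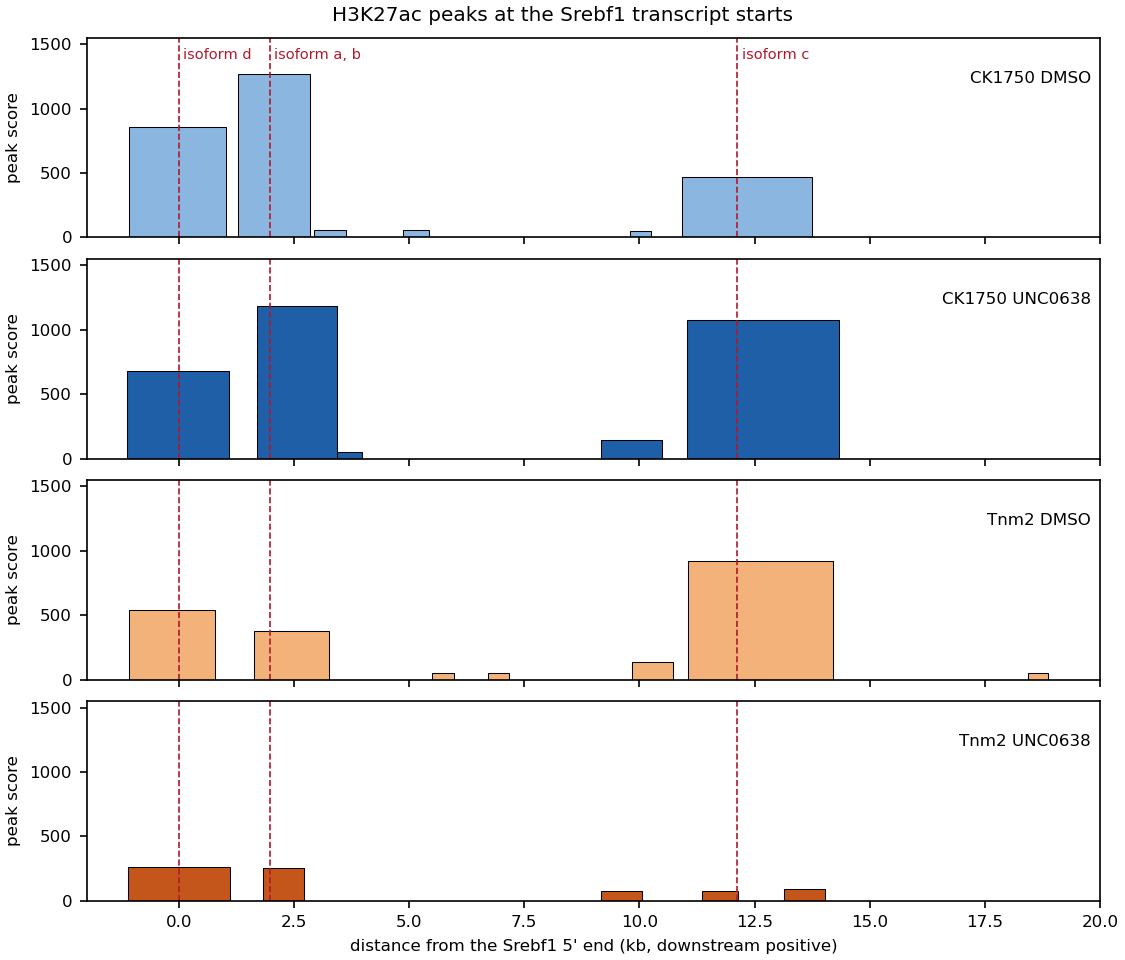
Peaks of each list at the upstream part of Srebf1, drawn as boxes from their start to their end, with the peak score as height and the distance from the gene's 5' end in kb along the axis. Dashed lines mark the starts of isoforms d, a and b, and c. The box over the isoform c start is 470.0 high in CK1750 with DMSO and 1076 with G9ai, and 920.2 and 78.8 in Tnm2.

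Insig1 (chr5:28071363-28078662, plus strand) encodes an endoplasmic reticulum protein that retains Scap with its SREBP, and is itself known as a target of SREBPs. Its best promoter peak scored 1552 in CK1750 with DMSO, 1420 with G9ai, 587.1 in Tnm2 with DMSO and 313.6 with G9ai. The gene rank was 77.3, 79.4, 54.6 and 66.1. It changed by 2.14 points with G9ai in CK1750 and rose by 11.5 in Tnm2, and 16.5% of ranked genes rose as far there. The size of this rise depended on the ranking: the rank by covered bases changed by 4.10, and with the peak nearest to a start the change was 42.3. The percentile of the peak among all peaks of the list changed by -3.20 in Tnm2. Over all ranked genes the median change on that scale was -9.33, and 1.39% of them rose by at least 10 points. In Tnm2 with DMSO the promoter was called as adjoining peaks of 587.1 and 260.0, and with G9ai as 1 peak. The non-coding gene Gm26608 starts beside Insig1, so these peaks cannot be given to either gene alone.

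Hmgcs1 (chr13:119690379-119708260, plus strand), which makes the precursor of mevalonate, had the lowest gene ranks of the 6 ranked members. Its best promoter peak scored 387.1 and 393.2 in CK1750 with DMSO and G9ai, and 314.1 and 115.3 in Tnm2. The gene rank was 26.98, 31.0, 29.4 and 25.5 in that order, a range of 5.53 points, and the changes with G9ai were 4.03 and -3.94 points. Ranking by width instead of score gave other changes. Peaks covered 1391 bases of the promoter window in CK1750 with DMSO and 2146 with G9ai, and 2149 bases in Tnm2 with DMSO and 812 with G9ai. Ranked by these bases, Hmgcs1 changed by 31.4 points in CK1750 and by -60.9 in Tnm2. How often other genes changed as far on this ranking was not computed. The bases in Tnm2 with DMSO include small peaks of 56.1 and 53.4, close to the lowest score listed. The printed 250 bases with the sterol regulatory element lay under a peak over 234 bases in CK1750 with DMSO and 203 with G9ai. In Tnm2 the figures were 250 bases with DMSO and 0 with G9ai, where the peak began downstream of the RefSeq start.

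Idi1 (chr13:8885501-8892451, plus strand), which converts the isoprenoid building blocks into each other, was the member with higher ranks in Tnm2 than in CK1750. Its single promoter peak scored 514.6 and 589.9 in CK1750 with DMSO and G9ai, and 711.1 and 332.2 in Tnm2. The gene rank was 37.3 and 46.3 in CK1750 and 62.9 and 68.1 in Tnm2. With G9ai it changed by 9.0 points in CK1750 and by 5.17 in Tnm2, both below 10 points. A non-coding gene, Gm48574, starts within reach of the same peak.

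Fdft1 (chr14:63145150-63179578, minus strand), the enzyme that joins farnesyl units to squalene, carried a weak promoter mark. Its best promoter peak scored 241.7 in CK1750 with DMSO, 184.3 with G9ai and 78.6 in Tnm2 with DMSO, and no promoter peak was listed in Tnm2 with G9ai. In CK1750 its peak stood at the 61.6 percentile of the list with DMSO and at the 50.8 percentile with G9ai, and among genes marked in both lists its rank changed by -5.14 points. Fdft1 was 1 of 1919 genes whose promoter peak was listed in Tnm2 with DMSO alone, and 68.0% of those had a score at least as high. Of the 1214 genes with a best promoter score between 50 and 100 in Tnm2 with DMSO, 74.5% had no promoter peak with G9ai.

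Sqle (chr15:59315077-59331192, plus strand), squalene epoxidase, was the member whose presence changed in opposite ways. No promoter peak was listed in CK1750 with DMSO. With G9ai, CK1750 had a peak of score 241.7 over the start (chr15:59315008-59316311) and one of 91.0 just upstream (chr15:59314270-59314991). In Tnm2 a peak of 52.8, close to the lowest score listed, was present with DMSO (chr15:59314320-59314758), and no promoter peak was present with G9ai. Of 4828 CK1750 peaks gained with G9ai, 33 (0.684%) scored at least 241.7. Of 332 genes that gained their promoter peak there, 12 (3.61%) had a best score at least as high. With only peaks of a score of at least 100, Sqle was gained in CK1750, and both Sqle and Fdft1 were without a promoter peak in Tnm2 under either treatment, so that the counts there were 6 and 6.

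Cyp51 (chr5:4081145-4104746, minus strand), lanosterol demethylase, had the widest range of ranks, 31.9 points. Its single promoter peak scored 1556 and 1874 in CK1750 with DMSO and G9ai, and 588.1 and 244.3 in Tnm2. The gene rank was 77.4 and 86.6 in CK1750 and 54.7 and 56.4 in Tnm2. With G9ai it changed by 9.16 points in CK1750 and by 1.71 in Tnm2, below 10 points in each. The genes with the most similar 4 ranks were Cstf3, Csnk1g2 and Ddx50, whose largest differences from Cyp51 over the 4 lists were 4.11, 4.35 and 4.62 points. None of the 3 was among the pathway genes.

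Counted together, 0 of the 6 ranked members rose and 0 fell by at least 10 points with G9ai in CK1750, against 15.0% and 15.5% of all ranked genes. In Tnm2, 1 rose (Insig1) and 1 fell (Srebf1), against 18.9% and 18.3%. The changes in CK1750 ran from -1.04 to 9.16 points with a median of 3.30, beside a median of 0.09 over all ranked genes, and 5 of 6 were above 0, against 50.3% of all genes. In Tnm2 they ran from -13.9 to 11.5 with a median of -0.93, beside 0.30, and 3 of 6 were above 0, against 51.5%. As percentiles among all peaks of a list, 2 of 6 members were above 0 in CK1750 and 0 of 6 in Tnm2, against 34.0% and 10.5% of all ranked genes, whose median changes were -1.96 and -9.33 points.

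The lines were then compared under the same treatment. With DMSO, Insig1 and Cyp51 ranked 22.7 points higher in CK1750 than in Tnm2 and Idi1 ranked 25.6 points lower, so that 2 of 6 were higher and 1 of 6 lower, against 21.5% and 21.5% of all ranked genes. With G9ai, Cyp51 (30.1), Srebf1 (14.3) and Insig1 (13.3) ranked higher in CK1750 and Idi1 ranked lower by 21.8 points. That was 3 of 6 higher and 1 of 6 lower, against 24.1% and 24.8% of all genes. As percentiles among all peaks of a list, 0 of 6 were higher and 1 of 6 (Idi1) lower in CK1750 with DMSO, against 12.4% and 11.2% of all ranked genes. With G9ai 4 of 6 (Cyp51, Hmgcs1, Insig1 and Srebf1) were higher and 0 of 6 lower, against 40.9% and 4.99%. Srebf2 and Hmgcs1 differed by 2.83 and -2.44 points with DMSO and by 5.35 and 5.53 with G9ai. Gapdh, a housekeeping gene, ranked 43.8 and 46.8 in CK1750 and 7.34 and 14.0 in Tnm2, a larger gap than that of any member.

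Within 50 kb of the 8 gene bodies there were 32 peaks in CK1750 with DMSO, 31 with G9ai, 42 in Tnm2 with DMSO and 28 with G9ai. The members' own promoters held 14, 14, 16 and 10 of them, and promoters of neighbouring genes held 11 in each list. Peaks away from any start numbered 7 and 6 in CK1750 and 15 and 7 in Tnm2. With G9ai, 7 of 32 DMSO peaks had no overlapping peak in CK1750 (21.9%) and 15 of 42 had none in Tnm2 (35.7%), against 21.8% and 43.1% of all DMSO peaks. Of the G9ai peaks, 5 of 31 were gained in CK1750 (16.1%) and 2 of 28 in Tnm2 (7.14%), against 19.6% and 8.81% of all G9ai peaks. With the lists shortened to equal length by score, 0 peaks were lost and 5 gained in CK1750, and 1 was lost and 5 gained in Tnm2. Over all peaks 13.0% were then lost and 17.6% gained in CK1750, and 20.5% and 18.6% in Tnm2. In the full lists, all 7 lost peaks in CK1750 and 14 of the 15 in Tnm2 scored below 100, as did 4 of the 5 gained in CK1750 and both gained in Tnm2. The exceptions were a lost Tnm2 peak of 132.0 in an intron of Ctsb near Fdft1, and the gained peak over the Sqle start.

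Of the 15 peaks away from starts in Tnm2 with DMSO, 6 lay at Srebf2, against 3 of 7 in CK1750 with DMSO. In an intron of Srebf2, peaks of 177.1, 166.4, 197.9 and 66.9 lay downstream of the start in the lists of CK1750 (DMSO, G9ai) and Tnm2 (DMSO, G9ai). A further intronic peak was present in both Tnm2 lists and in neither CK1750 list, at chr15:82166024-82167054 with DMSO (score 162.5) and chr15:82165760-82167109 with G9ai (135.4). It stood at the 54.8 and 55.7 percentile of those lists. Upstream of Hmgcs1, an intergenic peak lay 27.5 kb from the start in CK1750 with DMSO (chr13:119661572-119662886) and was listed in all 4 lists, with scores of 326.0 and 139.6 in CK1750 and 96.8 and 69.0 in Tnm2. Its percentile in the list was 68.3 and 42.7 in CK1750 and 36.0 and 22.0 in Tnm2. Cyp51 had no peak but that of its promoter in any list, and Idi1 had 1 further peak in each, at the start of Wdr37.

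**Figure D4:**
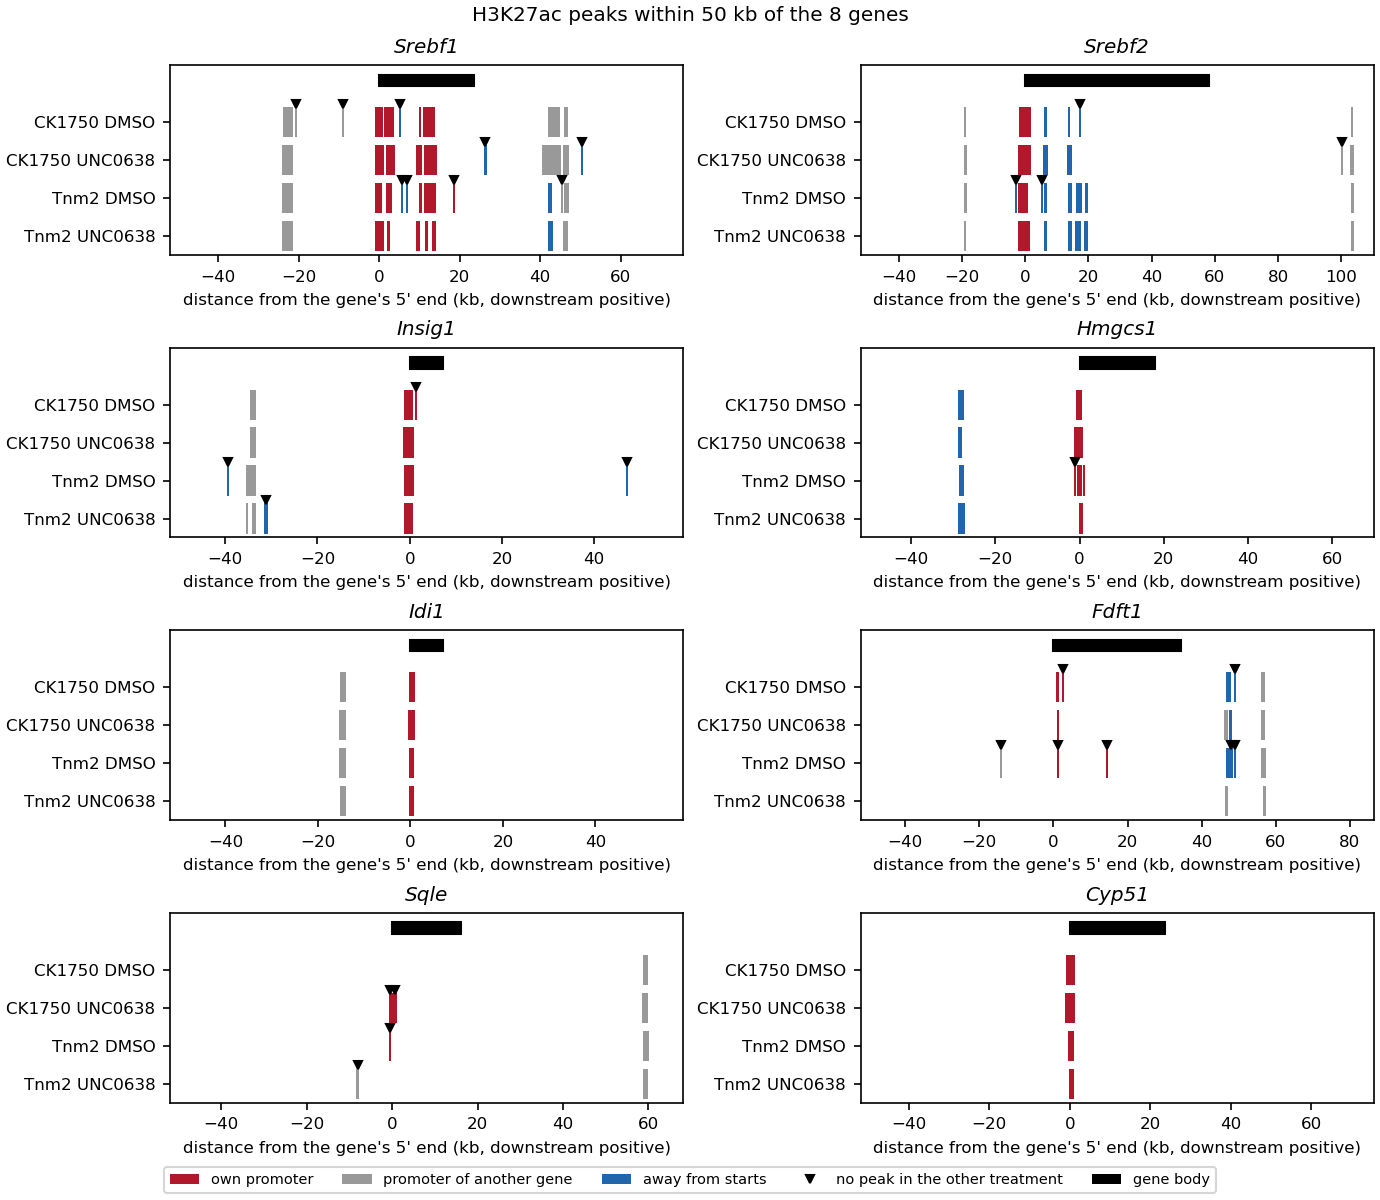
Peaks of the 4 lists within 50 kb of each gene, by distance in kb from the gene's 5' end, with the gene body as a black bar. Colours separate peaks at the gene's own starts, at starts of other genes and away from starts, and triangles mark peaks without an overlapping peak in the other treatment of the same line. Cyp51 and Idi1 carry the same peaks in all lists, and the promoter peaks of Sqle are marked by triangles in both lists that hold them.

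The other 46 genes of the pathway were listed by role. With DMSO 40 had a promoter peak in CK1750 and 36 in Tnm2, and with G9ai 38 and 30. Of the 28 that were ranked, 6 rose and 4 fell in CK1750, and 7 rose and 2 fell in Tnm2. Over all ranked genes, 15.0% rose and 15.5% fell in CK1750, and 18.9% rose and 18.3% fell in Tnm2. The median change of the 28 was -1.15 points in CK1750 and 3.45 in Tnm2. Ranked as percentiles among all peaks of a list instead, 0 of the 28 rose and 4 fell in CK1750, and in Tnm2 1 rose and 13 fell. On that scale 4.28% of all ranked genes rose and 15.7% fell in CK1750, and 1.39% rose and 48.0% fell in Tnm2.

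Of the 16 other cholesterol synthesis enzymes, 15 and 14 had a promoter peak in CK1750 with DMSO and G9ai, and 12 and 10 in Tnm2. Of the 8 ranked, 3 rose and 0 fell in CK1750, and 4 rose and 0 fell in Tnm2, beside the shares of 15.0% and 15.5% and of 18.9% and 18.3% over all genes given above. As percentiles among all peaks of a list, 0 rose and 1 (Fdps) fell in CK1750, and 1 (Fdps) rose and 2 (Msmo1 and Sc5d) fell in Tnm2. Of all ranked genes, 4.28% rose and 15.7% fell on that scale in CK1750, and 1.39% rose and 48.0% fell in Tnm2. On the gene rank, Msmo1 rose by 18.2 points and Hsd17b7 by 15.3 in CK1750. There the promoter of Hsd17b7 was called as peaks of 189.6 and 153.5 with DMSO and as 1 peak of 325.3 with G9ai. The part of this difference in its rise was not tested. In Tnm2 the largest rises were those of Pmvk (28.5), Fdps (21.3) and Mvk (17.7), enzymes of the mevalonate and isoprenoid steps. The peak of Fdps scored 55.4 with DMSO and 104.1 with G9ai in Tnm2, and stood near the bottom of the ranking with DMSO (0.232). Acat2 and Lss lacked a promoter peak in Tnm2 with G9ai alone, Dhcr7 and Ebp lacked it in Tnm2 with DMSO alone, and Mvd lacked it in both Tnm2 lists. Nsdhl had one only in CK1750 with DMSO (61.1), and Tm7sf2 only in Tnm2 with DMSO (116.2).

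The 7 other genes of SREBP processing and sensing had promoter peaks in every list, except Scap in Tnm2 with G9ai. Scap scored 98.4 and 121.2 in CK1750 and 128.8 in Tnm2 with DMSO. Of the 6 ranked, 0 rose and 0 fell in CK1750, and 0 rose and 1 fell in Tnm2, Mbtps2 by 11.3 points. A rise was seen in 15.0% of all ranked genes in CK1750 and a fall in 15.5%. For Tnm2 those shares were 18.9% and 18.3%. By percentile among all peaks of a list, 0 of the 6 rose in either line and 0 fell in CK1750. In Tnm2, 3 fell on that scale (Mbtps1, Mbtps2 and Rnf145), beside 48.0% of all ranked genes. Insig2, the relative of Insig1, ranked 46.1 and 44.8 in CK1750 and 63.9 and 63.6 in Tnm2, and so changed by -1.25 and -0.34 points with G9ai.

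Of the 9 genes of cholesterol uptake, efflux and storage, 6 had a promoter peak in CK1750 under each treatment, and 6 and 5 in Tnm2. Nr1h2, the sterol-sensing receptor LXR beta, rose by 20.8 points in CK1750 and changed by -0.64 in Tnm2. Nr1h3, LXR alpha, fell by 12.8 points in CK1750 and rose by 11.1 in Tnm2. In Tnm2 its best promoter peak lay at chr2:91202132-91203615 with DMSO and at chr2:91193990-91195547 with G9ai, so this rise joins different places. Its percentile among all peaks of the list was 87.2 and 79.0 in CK1750 with DMSO and G9ai, and 86.9 and 84.4 in Tnm2. On that scale all ranked genes had a median change of -1.96 points in CK1750 and -9.33 in Tnm2. Soat1, which esterifies cholesterol for storage, fell by 16.8 points in CK1750 and changed by 0.19 in Tnm2. Abcg1 had no promoter peak in any list, Abca1 had one only in Tnm2 with DMSO (54.1), and Mylip had one in CK1750 only, under both treatments (168.5 and 194.2).

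Of the 14 fatty acid synthesis genes, 12 and 11 had a promoter peak in CK1750 and 11 and 9 in Tnm2. Of the 9 ranked, 1 rose and 2 fell in CK1750, and 2 rose and 1 fell in Tnm2. In CK1750, a rise was seen in 15.0% of all ranked genes and a fall in 15.5%. For Tnm2 those shares were 18.9% and 18.3%. By percentile among all peaks of a list, 0 of the 9 rose in either line. Fads1 and Scd1 fell in CK1750, where 15.7% of all ranked genes did. In Tnm2, 5 fell (Acaca, Elovl5, Fads1, Fads2 and Scd1), beside 48.0% of all ranked genes. Elovl5, a fatty acid elongase, ranked 59.0 and 77.9 in CK1750 and 59.3 and 32.1 in Tnm2, a rise of 18.9 points in CK1750 and a fall of 27.2 in Tnm2. Scd1, a fatty acid desaturase, fell by 17.9 points in CK1750 and changed by -7.97 in Tnm2. Acly and Lpin1 lacked a promoter peak in Tnm2 with G9ai alone, Pnpla3 had one only in CK1750 with DMSO (55.6), and Acss2 and Mlxipl had none in any list.

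**Figure D5:**
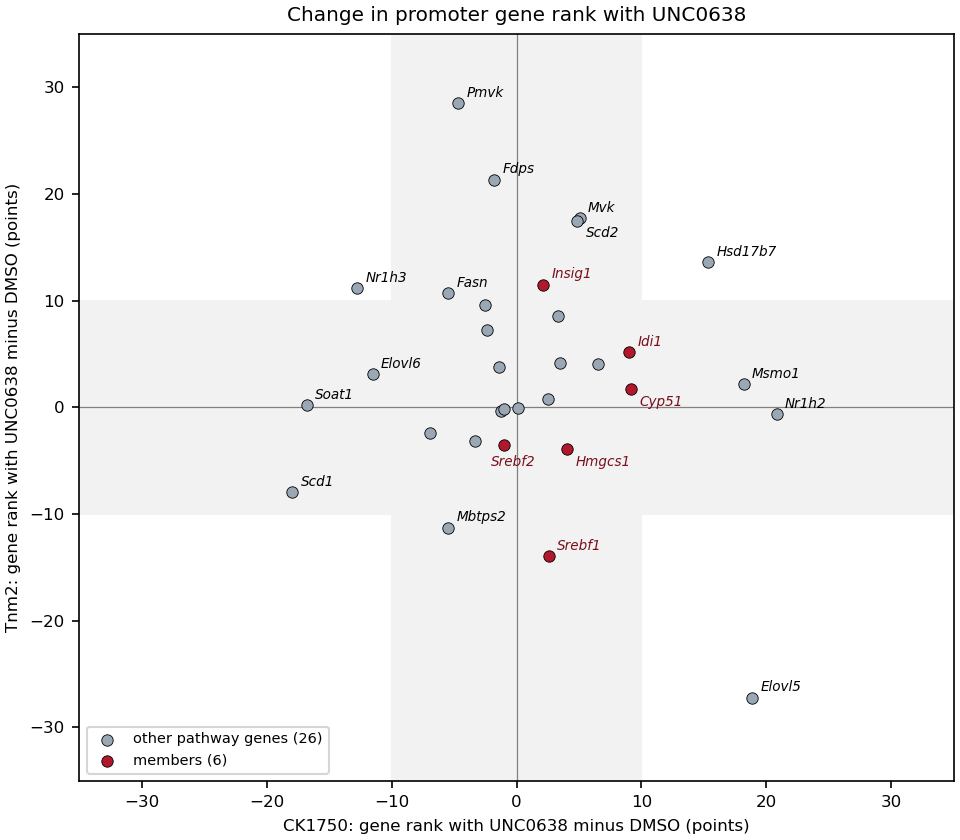
Change in gene rank with G9ai in CK1750 (horizontal) and in Tnm2 (vertical), in percentile points, for the 6 ranked members and the other ranked pathway genes reported here. The grey bands mark changes below 10 points. The members lie within 10 points along the CK1750 axis, with Srebf1 below and Insig1 above the band along the Tnm2 axis, and Elovl5 lies farthest toward a rise in CK1750 and a fall in Tnm2.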

How the data were processed

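H3K27ac chromatin immunoprecipitation was sequenced by the authors in 2 mouse lines with DMSO or UNC0638. They aligned the reads with bowtie2 to mm10 and called peaks with MACS 1.4.2, keeping those with P up to 1e-05, as the methods of the study state. The deposited lists give each peak's position and score, as the authors' caller gave it. The 9 samples of 4 groups were grouped by line, treatment and mark as labelled, and each group's name matched 1 merged list. Which libraries entered a list, and whether input was the control, is not given in the sources used here. Depth is unknown, and no p-value was computed. The other 21 samples (H3K9me2 and input) were not analysed here.

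The 8 genes, the pathway lists and the rules were chosen with earlier results of these data known. Starts came from GENCODE M21 on GRCm38, and 0 peaks ended past a chromosome end. Promoter peaks overlapped 2.5 kb around any start. Gene ranks used the best promoter score among 8615 genes. Lost and gained peaks lacked an overlap of 1 bp in the other treatment. Pathway genes were named where a list lacked their promoter peak, where they were among the 3 largest rises or falls of a line, and for Scap and Insig2, and some of the genes so chosen are not reported here. Others named with a value were chosen after their values were seen. Gapdh and 18 cell type markers served as reference. Promoter sequences were RefSeq's on GRCm38.p6. Alternatives were other windows, starts, score limits, rankings and overlap rules. The scripts were tested on simulated data. Python 3.11.15, numpy 2.4.6, pandas 2.3.3 and matplotlib 3.10.9 were used.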

Additional observations from a re-analysis of the deposited data

Results flagged for a closer look

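Several values moved in opposite directions in the lines, which is why they are listed here. Each rests on 1 list per group, and the difference between the lines was not tested. The start of Srebf1 isoform c rose by 37.46 points of start rank with G9ai in CK1750 and changed by -60.53 in Tnm2. The start of Srebf1 isoform d changed by -4.56 and 8.07 points. The gene rank of Srebf1 changed by 2.58 points in CK1750 and -13.93 in Tnm2, and that of Hmgcs1 by 4.03 and -3.94, both below 10 points. As percentiles among all peaks of a list, both genes dropped in both lines, with -0.59 and -14.40 for Srebf1 and -2.11 and -24.28 for Hmgcs1. The median change of all ranked genes on that scale was -1.96 in CK1750 and -9.33 in Tnm2. A drop on it is therefore not by itself a fall relative to other genes. The promoter of Sqle gained a peak of score 241.7 in CK1750 and lost one of 52.81 in Tnm2.

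Among the named pathway genes, the gene rank of Elovl5 changed by 18.87 points in CK1750 and -27.21 in Tnm2, and that of Nr1h3 by -12.79 and 11.14. The Tnm2 value of Nr1h3 joins peaks at different places. As a percentile among all peaks of a list, Nr1h3 dropped with G9ai from 87.2 to 79.0 in CK1750 and from 86.9 to 84.4 in Tnm2. The median change of all ranked genes on that scale was -1.96 in CK1750 and -9.33 in Tnm2, so the drop in Tnm2 was smaller than the median. Changes that were opposite in sign but below 10 points in 1 line were those of Pmvk (-4.69 in CK1750 and 28.51 in Tnm2), Fdps (-1.82 and 21.32), Nr1h2 (20.81 and -0.64) and Soat1 (-16.82 and 0.19). The list percentile of Soat1 was likewise lower with G9ai in each line. It dropped from 78.0 to 63.7 in CK1750, and in Tnm2 it dropped from 68.6 to 46.0.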

How the results depend on the processing

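No paired analysis was possible because each group has 1 pooled list that carries no replicate values, and for the same reason no replicate could be left out. Of 208 values recomputed under 15 alternatives, 159 stayed within 1.5 times the count reported and 49 did not. Promoter windows of 1 and 5 kb, the peak nearest to a start and the ranking over genes marked in both lists compared (chosen after seeing the data) moved none. With the gene's 5' end alone, 0 members fell in Tnm2.

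With percentiles among all peaks of a list, 0 members rose and 2 fell in Tnm2, 0 ranked higher and 1 lower in CK1750 with DMSO, and 4 higher and 0 lower with G9ai. Of the pathway genes, 0 then rose and 4 fell in CK1750, and 1 rose and 13 fell in Tnm2. Over all ranked genes, 4.28% then rose and 15.7% fell in CK1750, and 1.39% rose and 48.0% fell in Tnm2. Ranked by covered bases, 1 member rose in CK1750 and 0 in Tnm2, 1 ranked higher in CK1750 with DMSO and 0 lower with G9ai, and 7 pathway genes fell in Tnm2. With a margin of 5 points, 2 members rose in CK1750 and 2 in Tnm2, 5 ranked higher in CK1750 with G9ai, and 7 pathway genes fell in CK1750. The shares of all ranked genes were not computed for covered bases or for this margin. Nor were they for the 5' end alone or for scores of at least 100. The counts of members and pathway genes under these settings therefore have no background to be read against. With scores of at least 100, 1 member rose in CK1750. Peaks within 50 kb then numbered 21 in CK1750 with DMSO, 24 in Tnm2 with DMSO and 15 with G9ai, of which 0 and 8 were lost in CK1750 and Tnm2 and 0 gained in Tnm2. With each list shortened to its highest scores at the length of the shortest, there were 21 and 24 with DMSO, of which 0 and 1 were lost, and 5 were gained in Tnm2.

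A 10 kb window held 19, 17, 24 and 15 peaks in CK1750 (DMSO, G9ai) and Tnm2 (DMSO, G9ai), with 9 lost in Tnm2, 3 gained in CK1750 and 1 in Tnm2. A 100 kb window held 52, 50 and 70 in the first 3 lists, with 12 and 28 lost and 10 and 4 gained. Joining peaks within 1 kb left 3 and 8 lost. A reciprocal overlap of 50% gave 12 lost in CK1750, and 11 and 6 gained. Counting any peak within 1 kb as a match left 2 lost in CK1750. These counts follow from the windows and overlaps themselves. The cause of the other changes was not tested. Without read totals, it is not known whether a peak near the lowest score is missing from a list for lack of depth.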
